A study of Mus musculus with 9 samples.

Results

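Livers of 4 wild-type mice taken 12 h after partial hepatectomy were described across all genes on the array. They are the 4 arrays that the labels place in the control treatment, of 9 arrays in all, and the other 5 were not used here. All 4 mice were C57BL/6 of genotype WT, had partial hepatectomy with the treatment given as Control, and gave whole liver that was snap-frozen at 12 h; the labels used here give no age or sex. Each liver had a surgery date of its own (numbers 5, 2, 3 and 1 for control 1, 2, 3 and 4), so animal and surgery date cannot be told apart. Controls 3 and 4 were on 1 slide and controls 1 and 2 on another, by the slide number in the array labels. Total RNA was hybridised as biotin-labelled cRNA, with 1 array a liver and no repeat array, so that spread between livers holds both the animals and the handling. No unoperated or sham-operated liver is among the arrays described, and no value below says what the operation changed. In whole liver, fewer cells of a type and less RNA per cell cannot be told apart.

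After part of the liver is removed, the remaining hepatocytes leave their resting state and enter the cell cycle together. Immediate-early transcription factors come first, an acute phase response from hepatocytes runs beside them, and DNA replication genes follow in G1 and S phase. Meanwhile the smaller liver must keep up glucose output, ammonia removal, lipid handling and the secretion of plasma proteins.

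The arrays were near each other in depth of signal, but both arrays of slide 1 (controls 1 and 2) were brighter than both of slide 2. The mean raw bead signal per array was 415, 385, 359 and 356 intensity units in control 1, 2, 3 and 4, and the number of probes detected (detection p under 0.05) was 14868, 15323, 15707 and 14699. Over the detected features, which are genes or probes without a symbol, Pearson's r between 2 arrays lay between 0.943 and 0.967 across features, which are not independent replicates. Controls 2 and 3, on different slides, were the closest pair, and controls 1 and 2, on the same slide, the farthest. No probe (0 of 45281) had the same raw signal on any pair of arrays.

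Hepatocyte markers were present in every liver. All 13 hepatocyte markers on the array were detected on all 4 arrays, with transthyretin (Ttr) between 14.41 and 14.59 on the normalized log2 scale. Control 1 was nonetheless the lowest liver in 9 of the 13, where it was lowest in 19.2% of all features, and the list's median deviation from each gene's own mean was -0.38, 0.06, 0.24 and 0.00 in control 1, 2, 3 and 4. The part of this shift in the results on liver enzymes and plasma proteins was not tested. Of the other liver cells, 11 of 12 sinusoidal endothelial, 12 of 13 Kupffer cell and macrophage, and 8 of 11 stellate cell markers were detected on all 4. Of bile duct markers 3 of 8 were, near the 41.6% of all gene symbols detected on all 4. Lymphocytes were near the limit: 1 of 11 T and NK cell markers (Prf1) and 1 of 6 B and plasma cell markers (Ebf1) were detected on all 4, and Cd3d, Cd4, Cd8a, Cd79b and Ms4a1 on none. Few markers of neighbouring tissues were detected on all 4, with 1 of 12 for exocrine pancreas (Cela1) and 1 of 11 for skeletal muscle (Actn3). Gut and gallbladder epithelium had 1 of 10 (Lgals4) and adipocytes 0 of 6. Mesothelium had 2 of 6, near the share of all gene symbols. The Y-linked translation factor gene Eif2s3y was detected in every liver at 10.08, 9.92, 10.50 and 11.15 (log2), and so was the Y-linked demethylase gene Kdm5d. Xist, the RNA of the silenced X chromosome, was detected on 1 array, in control 4, at 5.50 against 4.73 to 5.00 on the arrays where it was not.

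A gene was called detected if it had a probe at a detection p under 0.05 on all 4 arrays. By this rule 12591 of 45281 probes (27.8%) and 7932 of 19057 gene symbols (41.6%) were detected. With 1664 probes that have no symbol this made 9596 features, each gene standing by its brightest detected probe. Another 2507 symbols were detected on 1 to 3 arrays at best and 8618 on none.

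Several genes known for the first hours of regeneration were below detection. Tnf and Il6, the cytokines that prime hepatocytes, the lymphotoxin gene Ltb and the transcription factor gene Myc were detected on 0 of 4 arrays, with raw signals of 97.5 to 120 for Tnf and 93.3 to 106 for Myc. Lta was detected on 1. Their receptors and downstream genes were measured: Ltbr lay between 6.42 and 6.99, Tnfrsf1a between 5.29 and 5.66, Tnfrsf1b between 6.65 and 7.80, and Socs3, the feedback inhibitor of cytokine signalling, between 10.08 and 10.96 (log2). Hgf, the stellate cell's growth factor for hepatocytes, lay between 7.31 and 8.23, and cyclin D1 (Ccnd1), which drives hepatocytes through G1, between 10.96 and 12.03. An undetected probe sets no bound on its transcript, since probes differ in how brightly they report.

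The brightest probes were those of secreted plasma proteins. Of the 25 named genes with the highest mean, the first was Dbi, the acyl-CoA binding protein, with raw signals of 37299, 33181, 33622 and 39161 in control 1, 2, 3 and 4. It was followed by the antitrypsin family (Serpina1b, Serpina1d, Serpina1e and Serpina1c), apolipoproteins (Apoa1, Apoc1 and Apoa2), the fibrinogen chain Fga, kininogen (Kng1), hemopexin (Hpx), transferrin (Trf), the bikunin precursor (Ambp) and the major urinary proteins Mup2 and Mup3. Antitrypsins and major urinary proteins are families of near-identical copies whose probes may share signal, so their single values are uncertain. The acute phase genes Orm1, Hp and Saa1 were in the set, as were metallothionein Mt1, ferritin heavy chain Fth1, the methionine adenosyltransferase Mat1a and the mitochondrial transcripts ND4 and CYTB. The set's means ran from 14.58 to 15.09 and none of the 25 was wide in the sense used below. Brightness ranks probes and not transcripts: albumin (Alb), the main plasma protein of liver, had raw signals of only 472, 368, 435 and 428, and ranked 4109 of 9596.

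Serum amyloid Saa1 was the gene of largest SD among the 25 brightest. Its values were 13.77, 15.20, 14.87 and 14.60 in control 1, 2, 3 and 4, an SD of 0.61 (n = 4), with control 1 lowest. Haptoglobin (Hp) at 14.08, 14.98, 14.79 and 14.73, and hemopexin at 14.33, 15.04, 14.97 and 15.11, were likewise lowest in control 1.

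Across all features the median SD over the 4 livers was 0.347 and the median range, highest minus lowest liver, 0.771 on the log2 scale. A range of at least 2, which is 4-fold, was called wide and was met by 348 of 9596 features (3.63%), 274 of them with a symbol; 2975 (31.0%) had a range of at least 1. A range of at most 0.2, called narrow, was met by 236 (2.46%). Without control 1 the wide count was 190, without control 4 it was 227, and by the authors' deposited log2 values it was 64, and at the edge the last wide feature had a range of 2.00069 and the next one 1.99976. With features in 10 equal bins of mean signal, the median SD was 0.244 in the dimmest, 0.401 in the fifth and 0.268 in the brightest.

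**Figure D1:**
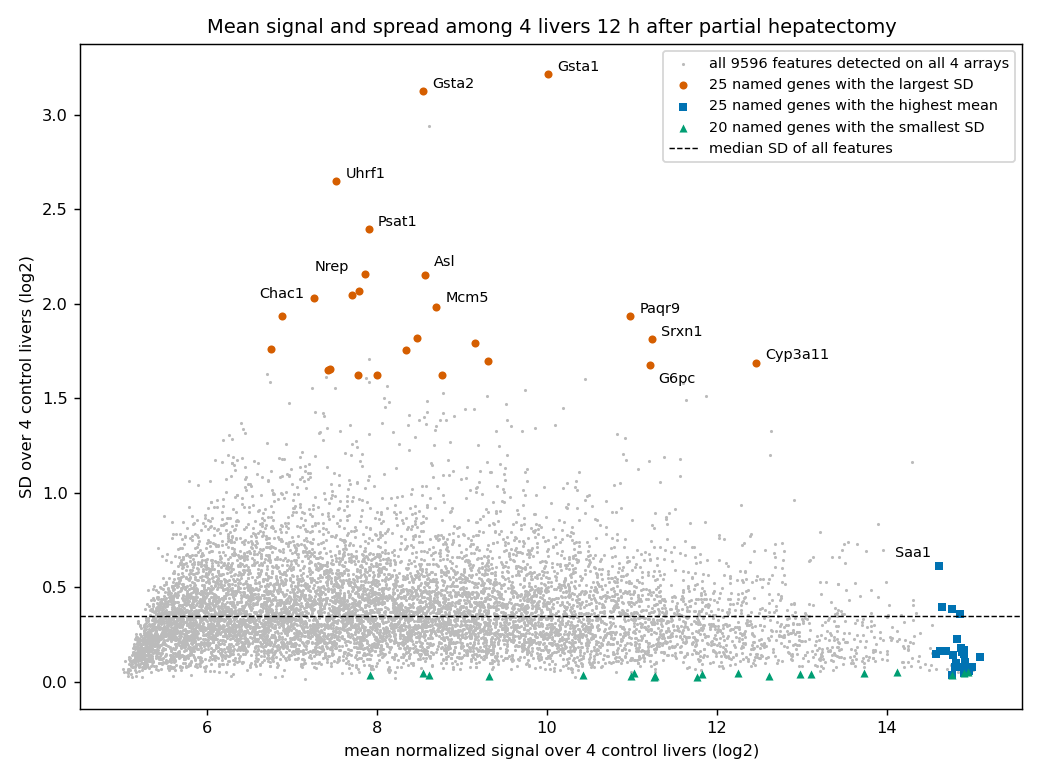
Mean normalized signal (x axis, log2) against SD over the 4 control livers (y axis, log2) for 9596 features, with the 25 named genes of largest SD as circles, the 25 brightest as squares and the 20 of smallest SD as triangles; the dashed line is the median SD of 0.347. Gsta1 and Gsta2 lie at the top with SDs of 3.22 and 3.13, and of the brightest genes Saa1 lies highest at 0.61.

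The widest genes of all were 2 glutathione transferases, which couple reactive compounds to glutathione. Gsta1 (chromosome 9, 78230669 to 78242683) had raw signals of 15239, 299, 2685 and 212 in control 1, 2, 3 and 4, or 13.85, 7.53, 11.48 and 7.18 after normalization, a 102-fold range. Gsta2, its neighbour on chromosome 9, had 12.57, 6.09, 9.45 and 6.04, a 92.4-fold range. In both, control 1 was far above control 3, and both of these were above controls 2 and 4, which lay close together. Raw signals of Gsta2 were 173 in control 2 and 144 in control 4, where the median of all probes was 116 and 107. The size of its fold therefore depends on the background step. By the authors' deposited table Gsta1 had 10.72, 7.52, 8.89 and 8.58, with control 4 near control 3, and Gsta2 had a range of 1.95, which is not wide. A second Gsta1 probe gave 13.42, 6.28, 9.76 and 5.60, the same order. The 2 genes are near copies, and their probes may share signal. Their promoters show the likeness, and are printed for that reason from RefSeq (GRCm38.p6), 250 bases before to 50 after the start, 5′ to 3′, with the longest unbroken run that both share, 29 bases, in capitals.
Gsta1 (chr9:78230419-78230718, plus strand): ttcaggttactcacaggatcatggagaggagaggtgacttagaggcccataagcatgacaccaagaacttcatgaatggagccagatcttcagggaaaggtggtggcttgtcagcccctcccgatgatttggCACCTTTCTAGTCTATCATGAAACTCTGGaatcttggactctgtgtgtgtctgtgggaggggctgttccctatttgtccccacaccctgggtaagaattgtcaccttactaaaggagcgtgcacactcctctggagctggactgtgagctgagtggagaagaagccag
Gsta2 (chr9:78347096-78347395, minus strand): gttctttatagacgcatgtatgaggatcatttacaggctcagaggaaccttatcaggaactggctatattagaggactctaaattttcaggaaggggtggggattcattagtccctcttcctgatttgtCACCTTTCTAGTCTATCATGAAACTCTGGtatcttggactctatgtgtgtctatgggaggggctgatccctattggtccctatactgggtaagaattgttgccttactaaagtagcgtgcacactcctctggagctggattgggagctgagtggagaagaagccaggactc

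Genes of the NRF2 and glutathione list, the enzymes induced by electrophiles and oxidants, shared that order of livers in part. Of 41 on the array, 34 were detected on all 4, and 7 of these (20.6%) were wide against 3.63% of all features. The list's median SD was 0.586 against 0.347. Controls 1 and 3 were both above controls 2 and 4 in 20 of the 34, where 17.2% of all features had that order. By the authors' deposited values it was 12 of the 34, where 21.1% of all features had it. The antioxidant Srxn1, which repairs oxidised peroxiredoxins, had 13.35, 10.53, 11.94 and 9.14 in control 1, 2, 3 and 4. Carbonyl reductase Cbr3 had 9.65, 5.45, 6.77 and 5.65. Heme oxygenase Hmox1 had 9.18, 8.87, 9.78 and 7.63, and was lowest in control 4. Not all of the list moved so: Mgst1, a membrane-bound transferase, lay between 14.43 and 14.57 and Gstt1 between 10.95 and 11.18.

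DNA replication genes had the largest median SD of the lists. Of 39 genes of G1 to S phase on the array 25 were detected on all 4. Of these 13 (52%) were wide, against 3.63% of all features, and the median SD of the 25 was 0.956. Uhrf1, which keeps DNA methylation through replication, had raw signals of 132, 1556, 131 and 524 in control 1, 2, 3 and 4, or 5.01, 10.54, 5.60 and 8.92 normalized, a 46.1-fold range. The size of that fold depends on the background step. The median raw signal of all probes was 119 in control 1 and 104 in control 3, not far below the Uhrf1 signals there. Mcm5, a subunit of the replicative helicase, had 6.54, 10.90, 7.60 and 9.73, and Mcm6, another, 6.37, 9.79, 7.55 and 10.18. Mcm10, which helps to switch that helicase on, had 8.12, 10.20, 7.65 and 11.23. In these 4 genes controls 2 and 4 were high and controls 1 and 3 low, with no overlap between the pairs. The same held for all 13 wide members, where 27.6% of the 348 wide features and 15.8% of all features had that order. By the authors' deposited table the 4 genes kept the order with smaller gaps between the pairs. Uhrf1 had 7.62, 9.86, 8.59 and 8.81 there, with control 4 near control 3. Mcm5 had 8.08, 10.55, 9.11 and 9.53, and Mcm10 a range of 0.850.

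The other 9 wide members, named after their values were seen, were E2f1, Cdt1, Mcm4, Mcm2, Lig1, Rfc4, Rrm1, Fen1 and Tyms. They run from the transcription factor that opens S phase (E2f1, with 5.77, 9.15, 6.31 and 8.35) through origin licensing (Cdt1, with an 11.4-fold range between control 2 and control 3) to nucleotide supply (Tyms, with 5.74, 8.03, 6.50 and 6.88). Over all 25 detected members, controls 2 and 4 were both above the other pair in 18, against 15.8% of all features. Control 2 was the highest liver in 18 and control 4 in 6, where they were highest in 22.5% and 28.8% of all features. Controls 1 and 3 were lowest in 12 and 11, where they were lowest in 19.2% and 26.9% of all features. Without control 2, 8 of the list's genes were wide, and by the authors' deposited values, normalized in steps that are not stated, 2 were. Of the list's steadiest members, Gins2 lay between 5.31 and 5.98 and E2f3 between 6.72 and 7.58, and in E2f3 control 1 was highest. A second probe of Rfc4 had a range of 0.404 at the dim end of the scale, while that of Mcm6 had 5.33, 8.92, 5.87 and 7.45.

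**Figure D2:**
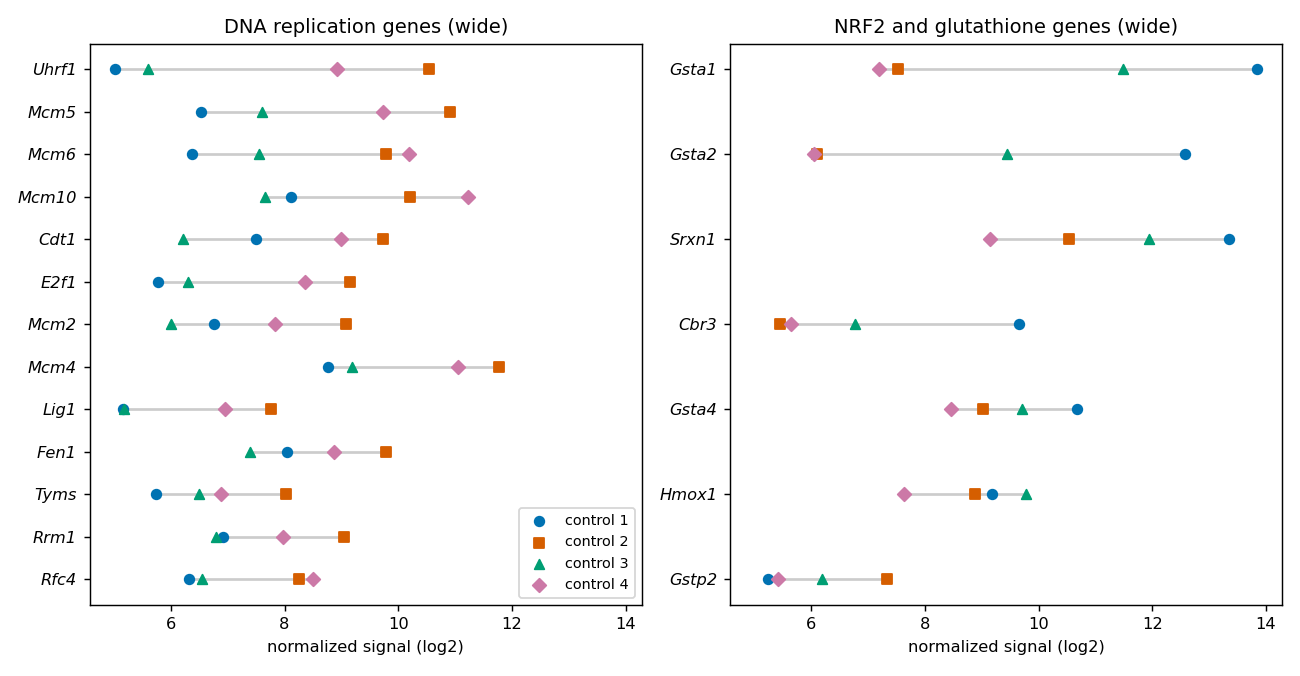
Normalized signal (x axis, log2) of the wide genes of 2 lists in each of the 4 control livers, with 1 line a gene from its lowest to its highest liver. In the 13 replication genes controls 2 and 4 (squares and diamonds) lie to the right of controls 1 and 3 (circles and triangles). In 6 of the 7 NRF2 and glutathione genes, all but Gstp2, controls 1 and 3 lie to the right. Of all 348 wide features 27.6% had the first order and 22.7% the second.

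The promoters of the 4 named replication genes are printed to show where E2F motifs lie, since E2F factors are known to drive this class of gene. The letters searched were TTTCCCGC and TTTGGCGC on both strands, which do not overlap each other, in the same RefSeq windows (GRCm38.p6); matches are in capitals. For Uhrf1 the first of its 2 windows is given.
Uhrf1 (chr17:56303087-56303386, plus strand): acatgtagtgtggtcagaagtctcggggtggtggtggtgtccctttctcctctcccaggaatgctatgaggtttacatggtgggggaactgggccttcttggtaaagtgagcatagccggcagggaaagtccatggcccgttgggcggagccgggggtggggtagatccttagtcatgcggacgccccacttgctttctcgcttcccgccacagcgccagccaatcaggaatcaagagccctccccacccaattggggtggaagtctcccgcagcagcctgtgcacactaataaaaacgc
Mcm5 (chr8:75109259-75109558, plus strand): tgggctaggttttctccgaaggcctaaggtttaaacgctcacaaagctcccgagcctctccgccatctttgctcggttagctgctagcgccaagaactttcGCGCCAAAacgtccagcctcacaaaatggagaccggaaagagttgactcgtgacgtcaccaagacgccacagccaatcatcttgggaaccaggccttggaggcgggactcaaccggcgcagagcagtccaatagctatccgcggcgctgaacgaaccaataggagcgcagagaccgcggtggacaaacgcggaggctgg
Mcm6 (chr1:128359656-128359955, minus strand): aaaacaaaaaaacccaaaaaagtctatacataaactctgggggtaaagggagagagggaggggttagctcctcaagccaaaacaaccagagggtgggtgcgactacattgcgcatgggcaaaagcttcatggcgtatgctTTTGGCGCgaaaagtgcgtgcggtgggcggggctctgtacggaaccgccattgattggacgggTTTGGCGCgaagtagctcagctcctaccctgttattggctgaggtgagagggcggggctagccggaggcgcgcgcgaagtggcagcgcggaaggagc
Mcm10 (chr2:5012742-5013041, minus strand): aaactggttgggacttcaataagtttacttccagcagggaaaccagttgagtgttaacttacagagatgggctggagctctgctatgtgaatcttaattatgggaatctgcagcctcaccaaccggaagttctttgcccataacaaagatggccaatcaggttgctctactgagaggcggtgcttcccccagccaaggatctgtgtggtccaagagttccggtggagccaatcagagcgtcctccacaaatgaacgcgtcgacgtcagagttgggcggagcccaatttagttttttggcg

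Mcm6 held TTTGGCGC at 110 and 47 bases before the start and Mcm5 held it on the other strand at 149. Neither motif was in the printed windows of Uhrf1 or Mcm10. Either motif was in 5 of the 20 detected list members that have a window, in 3.26% of the 6507 genes detected on all 4 arrays that have one, and in 1.56% of all 32851 windows. Among the 12 wide members with a window it was in 3. These are matches of letters, and binding was not measured.

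Of 23 genes of G2 and mitosis on the array 7 were detected on all 4, where 41.6% of all gene symbols were, 8 were detected on 1 to 3 arrays and 8 on none. Aurka, a spindle kinase, had 5.24, 7.76, 5.33 and 6.65 in control 1, 2, 3 and 4, and Prc1, a spindle midzone protein, 5.28, 7.87, 5.59 and 6.41. Control 2 was the highest liver in 6 of the 7, against 22.5% of all features. Foxm1, a transcription factor of mitotic genes, stayed between 5.14 and 5.37, close to background.

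The cell cycle inhibitor p21 (Cdkn1a) had the opposite order. Its values were 10.77, 8.27, 10.82 and 8.23 in control 1, 2, 3 and 4, a 6.01-fold range, with controls 1 and 3 high and controls 2 and 4 low. Of the 11 detected cell cycle inhibitors and p53 targets, Cdkn1a was the 1 wide gene, where 3.63% of all features were wide. Mdm2, which targets p53 for breakdown, was highest in control 1 at 10.88 and lay between 9.59 and 10.07 in the others. Cdkn2c, an inhibitor of the cyclin D kinases, lay between 6.62 and 6.97.

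Immediate-early genes, which respond within minutes to growth factors and stress, were more often highest in control 1 than in any other liver. Of 34 on the array 21 were detected on all 4, and 7 of these (33.3%) were wide, against 3.63% of all features. Control 1 was the highest liver in 14 of the 21 and control 2 the lowest in 10, where control 1 was highest in 32.5% and control 2 lowest in 28.4% of all features. Egr1 had 12.96, 9.82, 12.74 and 11.01 in control 1, 2, 3 and 4. Fos, a part of AP-1, had 11.31, 8.15, 9.89 and 8.78, and Ccn2, a target of YAP and TGF-beta signals, 11.03, 7.77, 9.44 and 8.31. Atf3, a stress-induced factor, had 8.34, 6.19, 5.93 and 5.14. Dusp6, a phosphatase that limits ERK, was steadier, between 11.26 and 11.63, and Gadd45g between 12.29 and 13.19.

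ATF4 targets, the genes of the amino acid and integrated stress response, were the second most variable list. Of 15 detected genes 7 were wide (46.7%, against 3.63% of all features) and the median SD was 0.771. Psat1, an enzyme of serine synthesis, had 11.11, 6.01, 8.35 and 6.13 in control 1, 2, 3 and 4. Chac1, which breaks down glutathione, had 9.96, 6.12, 5.35 and 7.57, and the hormone gene Fgf21 9.01, 5.66, 7.82 and 7.01. Control 1 was highest in these 3, as in 8 of the 15, against 32.5% of all features. Cth, which makes cysteine, ran otherwise with 8.68, 10.76, 11.35 and 8.18. Atf4 itself lay between 10.24 and 10.72, while its second detected probe had a range of 1.39.

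Genes of glucose output and storage were lowest in control 1 more often than in any other liver. Of 17 detected, 5 were wide (29.4%, against 3.63% of all features), and control 1 was lowest in 9, against 19.2% of all features. Glucose-6-phosphatase G6pc, the last step of glucose release, had raw signals of 705, 4311, 1760 and 7272 in control 1, 2, 3 and 4, a 14.5-fold range after normalization. Pck1, which commits carbon to glucose synthesis, had log2 values of 8.89, 10.34, 10.69 and 11.41. Gys2, the liver's glycogen synthase, had 5.17, 8.75, 8.56 and 7.21, and the glycogen-targeting subunit Ppp1r3b 8.51, 10.31, 8.22 and 10.68. Pgm1, which moves glucose phosphate in and out of glycogen, lay between 13.13 and 13.62.

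The urea cycle gene Asl, argininosuccinate lyase, was the most variable of the nitrogen genes. It had raw signals of 155, 1502, 986 and 312 in control 1, 2, 3 and 4, a 26.5-fold range after normalization. The median of all probes in control 1 was 119, so the size of this fold depends on the background step. Control 1 was lowest in 12 of the 26 detected genes of the urea cycle and amino acid breakdown, against 19.2% of all features. Tdo2, which opens the tryptophan ring, had 8.09, 7.07, 10.31 and 8.84 in control 1, 2, 3 and 4, and Bhmt, which remethylates homocysteine, had a 4.05-fold range between control 3 and control 1. Other steps of the same cycle varied less: Ass1 had 13.04, 13.80, 14.01 and 12.58, and Cps1 13.62, 14.43, 14.31 and 13.73. Fah, the last enzyme of tyrosine breakdown, lay between 13.46 and 13.73.

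Lipid genes were more variable than the typical gene, with medians of 0.516 for fatty acid oxidation, 0.543 for fatty acid and triglyceride synthesis and 0.547 for sterol biosynthesis. Pdk4, which spares glucose by closing pyruvate dehydrogenase, had 9.27, 7.34, 10.26 and 7.86 in control 1, 2, 3 and 4. The lipid droplet protein Plin4 had 10.46, 8.58, 9.80 and 8.01, and Hilpda, which slows the breakdown of stored fat, 10.80, 7.68, 10.59 and 7.52. In all 3, controls 1 and 3 were above controls 2 and 4, an order that 17.2% of all features had. The lists as wholes were near that share. It was the order of 7 of 31 detected fatty acid oxidation genes (22.6%) and 5 of 22 of fatty acid and triglyceride synthesis (22.7%). Control 4 was the highest liver in 15 of the 31, against 28.8% of all features. Thrsp, a lipogenic nuclear protein, was highest in control 1 at 8.55 and lay between 5.95 and 6.83 in the others. Scd1, the desaturase of fatty acid synthesis, lay between 12.97 and 13.32. No detected gene of sterol synthesis was wide (0 of 16, against 3.63% of all features).

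Drug and bile acid enzymes held a few wide genes. Cyp3a11, a main drug-metabolising P450, had 14.28, 10.24, 12.30 and 13.02 in control 1, 2, 3 and 4, a 16.4-fold range. By the authors' deposited table it had 12.11, 11.33, 11.16 and 12.36, with a log2 range of 1.20 and control 3 lowest. Cyp2a5 had 12.63, 10.91, 13.15 and 9.71. The list of P450 families had a median SD of 0.382, with 2 of 20 wide, against 3.63% of all features. Cyp2e1 lay between 14.32 and 14.52. Cyp8b1, which sets the share of cholic acid, had 7.84, 9.91, 8.28 and 11.13, while Cyp27a1 of the same list lay between 12.43 and 12.66. The bile acid list had a median SD of 0.478. Of its 18 detected genes 1 was wide and 9 had a range of at least 1, against 3.63% and 31.0% of all features.

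Male-biased genes of mouse liver held members with the order of the replication genes. Hsd3b5, a steroid enzyme of male liver, had 6.69, 8.17, 5.54 and 8.67 in control 1, 2, 3 and 4, and Keg1, an acyltransferase-like gene, 7.33, 9.94, 7.27 and 9.80. Egfr, the receptor of epidermal growth factor, had 11.22, 13.15, 11.94 and 14.22. A second Egfr probe had 11.63, 12.43, 12.00 and 12.57. Controls 2 and 4 were the high pair in these genes, and in 8 of the 19 detected male-biased genes, where 15.8% of all features had that order. Of the 19, 4 were wide (21.1%, against 3.63% of all features), 3 of them with that order and 1 with controls 1 and 3 above. Of 5 detected female-biased genes 1 had controls 2 and 4 above the other pair.

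Acute phase genes had a median SD of 0.409. Of 32 detected, 15 had a range of at least 1, against 31.0% of all features, and 2 were narrow, against 2.46%. Wide were 3 (9.38%, against 3.63% of all features). Of these Saa4 had 8.74, 11.78, 9.43 and 11.84 in control 1, 2, 3 and 4. Saa3 had 9.13, 10.18, 6.97 and 9.84, and the endotoxin co-receptor Cd14 had 10.16, 7.61, 9.26 and 7.17. Control 1 was the lowest liver in 19 of the 32, against 19.2% of all features. Lrg1 lay between 14.31 and 14.49, and hepcidin (Hamp), the hormone that restricts iron, between 14.18 and 14.38. Of the complement and coagulation genes control 1 was lowest in 25 of 38, against the same 19.2% of all features. Of the 38, 2 were wide (5.26%), near the 3.63% of all features.

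Interferon-induced genes did not all share 1 order. Igtp and Irgm2, GTPases of cell-autonomous defence, were high in controls 2 and 4, with raw signals of 263, 1115, 218 and 587 for Igtp and log2 values of 7.61, 9.73, 7.60 and 8.71 for Irgm2 in control 1, 2, 3 and 4. Rsad2, an antiviral enzyme, was high in control 1 alone, with 9.83, 6.75, 6.73 and 6.69. Oasl1 was also highest in control 1, with 10.06, 7.84, 8.18 and 6.47. Of the 26 detected genes 5 were wide (19.2%, against 3.63% of all features). Controls 2 and 4 were both above the other pair in 13 of the 26, against 15.8% of all features. Control 2 was the highest liver in 15, against 22.5% of all features.

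Clock-controlled genes were also spread, although the label gives 12 h for all. Dbp, an output of the clock, had 7.43, 9.82, 7.89 and 9.41 in control 1, 2, 3 and 4, and Usp2 6.41, 9.22, 6.68 and 8.42. The core clock gene Arntl had 7.59, 6.54, 8.01 and 7.73, and was lowest in control 2. Dbp and Usp2, the 2 wide genes of 16 detected (12.5%, against 3.63% of all features), had the order of the replication genes. Over the 16, controls 2 and 4 were both above the other pair in 3, near the 15.8% of all features. The time of day of surgery is not given in the labels used here.

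**Figure D3:**
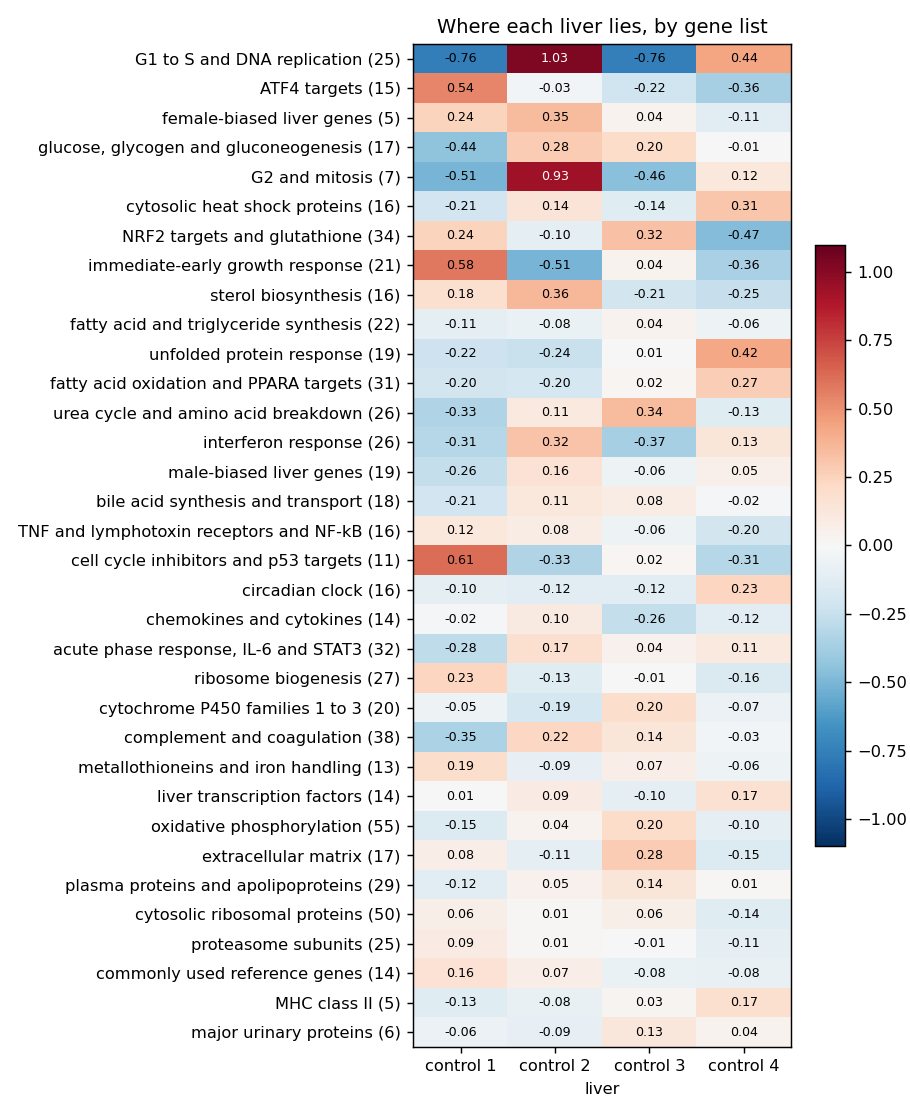
Median deviation of a list's detected genes from each gene's own 4-liver mean (colour and printed value, log2) in each control liver, with the number of genes in brackets and lists in order of median SD, most variable at the top. Replication genes read -0.76, 1.03, -0.76 and 0.44 in control 1, 2, 3 and 4, immediate-early genes 0.58, -0.51, 0.04 and -0.36, and the NRF2 list 0.24, -0.10, 0.32 and -0.47.

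Growth factor and other genes among the 25 of largest SD stood outside the lists. Nrep, a neuronal regeneration protein, had 5.99, 9.33, 6.03 and 10.08 in control 1, 2, 3 and 4, and the progestin and adipoQ receptor family gene Paqr9 had 9.56, 12.27, 9.11 and 12.98. Both had controls 2 and 4 high. Slc51b, a subunit of the basolateral bile acid exporter, had 9.73, 6.90, 9.20 and 5.29, and Btc, a ligand of Egfr, 9.79, 6.57, 8.93 and 6.67. These had controls 1 and 3 high, but by the authors' deposited table the SD of Slc51b was 0.124. Tff3, a secreted mucosal peptide, had 7.31, 9.74, 9.91 and 6.41, and Sdc4, a heparan sulfate proteoglycan, 7.30, 10.14, 10.19 and 7.41, with controls 2 and 3 high. By the authors' deposited table Tff3 had 8.98, 8.80, 9.44 and 8.18, with controls 1 and 3 high. Sdc4 had 8.26, 9.87, 9.56 and 9.37 there. The last of the 25 had an SD of 1.62 and the next gene 1.61.

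Which livers lay on the high side was counted for every wide feature, by the largest gap in its 4 values. Controls 2 and 4 were the high side in 54 of 348 (15.5%, against 5.22% of all features), controls 2 and 3 in 47 (13.5%, against 7.61%) and controls 1 and 3 in 30 (8.62%, against 4.79%). Control 1 alone was high in 45 (12.9%, against 13.7%) and low alone in 34 (9.77%, against 5.19%). By the simpler count of both livers of a pair lying above the other pair, whatever the gap, the shares of all features were 27.2% for controls 1 and 4, 18.5% for controls 2 and 3, 17.2% for controls 1 and 3, 15.8% for controls 2 and 4, 11% for controls 3 and 4 and 10.3% for controls 1 and 2. The pair of slide 2 was the high side in 13 (3.74%, against 3.50%) and the pair of slide 1 in 0 (against 2.17%). Of the 348 wide features, control 1 was the lowest liver in 144 and the highest in 79. Over all features it was lowest in 19.2% and highest in 32.5%. Control 2 was the highest in 101 wide features and control 4 in 99, where they were highest in 22.5% and 28.8% of all features.

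**Figure D4:**
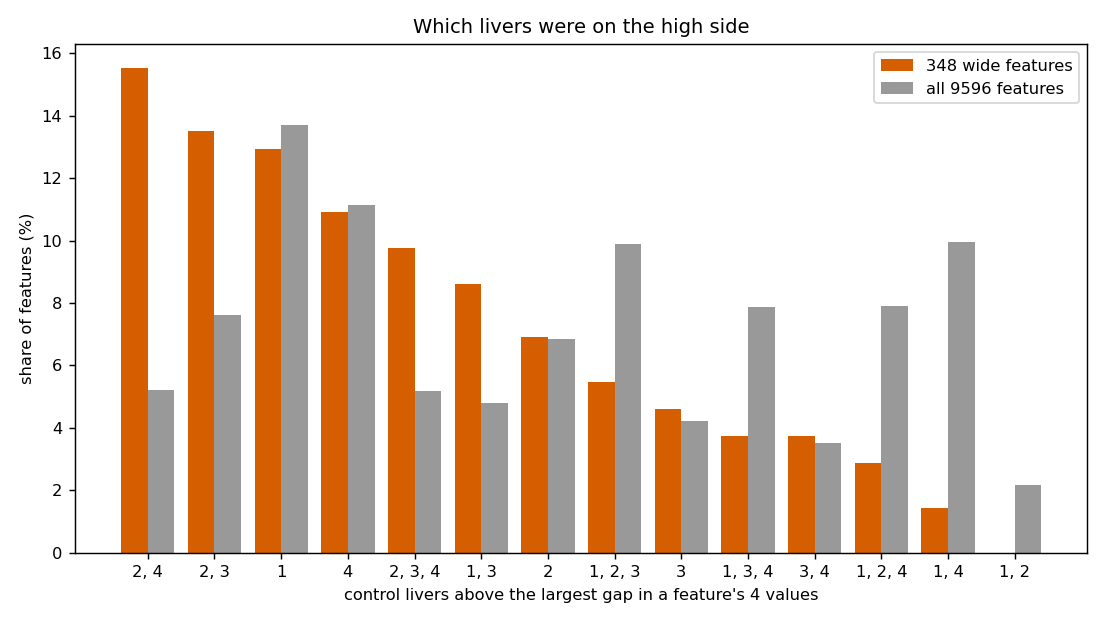
Share of features (y axis, percent) by which control livers lie above the largest gap in the feature's 4 values (x axis), for 348 wide features and for all 9596. The pair of controls 2 and 4 has 15.5% of the wide features and 5.22% of all, and the pair of controls 1 and 2, which shared a slide, none of the wide features.

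Where a gene had another detected probe, most wide genes were wide again. Of 53 wide genes with such a probe, 30 had a second range of at least 2 and 46 of at least 1, and 33 (62.3%) had the same highest and the same lowest liver by both probes, against 28.3% of the 2316 genes with 2 detected probes. A second range under 0.5 was seen in 3, namely 1810058I24Rik, Gpcpd1 and Rfc4, named after their values were seen.

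Slide 2 minus slide 1 was tested within the 4 livers with limma. No feature passed a Benjamini-Hochberg adjusted p of 0.05 (0 of 9596; the smallest adjusted p was 0.99977), and 231 (2.41%) had an unadjusted p under 0.05. With 2 arrays on each slide the test could miss large differences as well as small ones, so it does not show that the slides were alike. Quantile normalization had also brought the 4 arrays to a common distribution beforehand.

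At the other end were the steadiest bright genes. The 20 named genes with the smallest SD, among those with a mean above the median of 7.90, had SDs of 0.022 to 0.049 and ranges of at most 1.08-fold. Hyal2, a membrane hyaluronidase, had 11.75, 11.78, 11.80 and 11.75 in control 1, 2, 3 and 4. The set also held Sec61g of the protein translocation channel, the respiratory chain genes Uqcc2 and Ndufa13, the mitochondrial ribosome genes Dap3 and Mrps24, the ribosomal stalk gene Rplp2, the elongation factor gene Eef1d, the iron-sulfur genes Nfs1 and Nubp1, and the insulin protease gene Ide. The secreted proteins in it were Apoc1, C8g, Serpina1d, Fga and Mup6. Its remaining members were Mvb12a, Zdhhc7, Ssx2ip and Hsbp1. Other probes of the same genes were not always as steady. The range of a second detected probe was 1.59 for Nfs1, 1.24 for Ide and 0.636 for Nubp1. It was 0.442 for Apoc1, 0.211 for Fga and 0.090 for Dap3. The set rests on small differences: median scaling in place of quantile normalization left 4 of the 20 in it, and leaving out any 1 liver left 2 to 7.

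Several lists of general upkeep were below the median spread, but ribosome biogenesis, with a median SD of 0.385 and 0 of 27 wide, was not. Cytosolic ribosomal proteins had a median SD of 0.294 with 0 of 50 wide, proteasome subunits 0.273 with 0 of 25 and oxidative phosphorylation 0.327 with 1 of 55. Plasma proteins and apolipoproteins had 0.30, with 0 of 29 wide and 7 narrow, and major urinary proteins 0.113 over 6 genes. Of all features 3.63% were wide and 2.46% narrow. Among 14 reference genes of common use, with a median of 0.267, Gusb was steadiest at 9.25 to 9.47 and Rplp0 least steady at 8.22, 7.04, 7.33 and 8.32 in control 1, 2, 3 and 4. Gapdh had 12.27, 12.93, 12.63 and 12.13, and Actb 12.39, 13.26, 12.93 and 12.38. Controls 2 and 3 were above controls 1 and 4 in both. That was the order of 3 of the 14 (21.4%), near the 18.5% of all features. A second detected Actb probe was far less steady, with a range of 5.39.

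**Figure D5:**
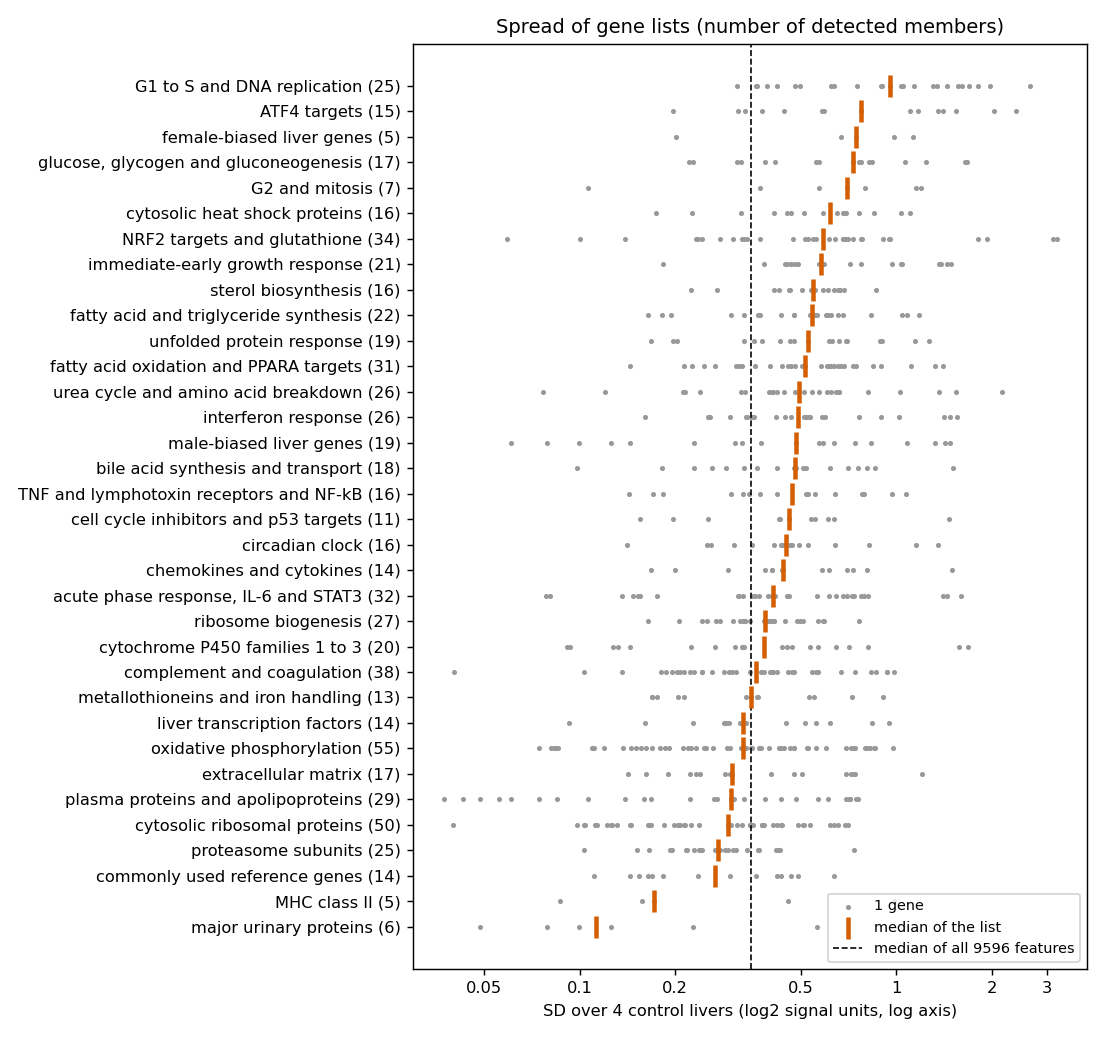
SD over the 4 control livers (x axis, log2 units on a log axis) of each detected gene (points) by gene list, with the list's median as a bar, the number of genes in brackets and the median of all 9596 features, 0.347, as a dashed line. Replication genes have the highest median (0.956) and major urinary proteins the lowest (0.113).

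Markers of cells other than hepatocytes varied too. Lyve1, a hyaluronan receptor of sinusoidal endothelium, had 10.15, 6.96, 9.23 and 8.42 in control 1, 2, 3 and 4. It was the 1 wide marker of 11 detected, where 3.63% of all features were wide. Tek lay between 8.24 and 8.58 and Stab2 between 7.82 and 8.29. Of 12 detected Kupffer cell and macrophage markers control 1 was lowest in 9, as in the scavenger receptor Marco with 6.30, 7.71, 7.76 and 7.13, against 19.2% of all features. The complement gene C1qb had 8.80, 10.22, 9.96 and 8.53. Of 6 detected neutrophil and monocyte markers control 1 was highest in 5, against 32.5% of all features. Their median deviation from each gene's own mean was 0.68 in control 1 and -0.51 in control 3. S100a8, a calcium-binding alarm protein, had 9.37, 9.09, 8.07 and 8.36 in control 1, 2, 3 and 4. Control 1 was also the liver most often highest for immediate-early genes, and the part of these cells in that result was not tested. All 3 detected bile duct markers were lowest in control 2, against 28.4% of all features, as in Sox9 with 11.26, 9.51, 10.50 and 10.25. Red cell globin Hba-a1 had 12.54, 13.78, 13.59 and 11.71, with controls 2 and 3 high, the pair that was also high for Asl, Tff3 and Sdc4. The part of red cell content in those results was not tested.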

How the data were processed

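Total RNA of whole liver was measured on Illumina mouse bead arrays, with 1 array per mouse. The deposited non-normalized table gives raw probe intensity (average bead signal) with a detection p-value beside it, for 45281 probes on each array, per the file headers; scanner settings and background steps are not given in the sources used here. The authors' normalized values were used only as an alternative: they are deposited on a log2 scale, judged from their range, with Partek named in the submitters' processing notes and no steps stated.

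Signals of the 4 control arrays were background-corrected with limma neqc (negative controls inferred from detection p, offset 16), quantile-normalized and log2-transformed. Precision is limited by the number of arrays, 4, and p-values measure only the spread between these samples. GEO's annotation of the array names 1 symbol for 34885 probes, several for 18 and none for 10378, and 34807 were matched by gene ID to RefSeq (GRCm38.p6). Each gene is its brightest detected probe. SD and range over the arrays are descriptions with no test; slides were compared with limma (lmFit, eBayes, two-sided, Benjamini-Hochberg), tested on simulated data. The 5 arrays of the other group were left out.

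Named were the 25 brightest genes, the 25 of largest SD, the 20 of smallest SD with a mean above the median, up to 4 genes of largest and 2 of smallest SD in each of 51 lists, all markers and reference genes, and 14 further genes tied to lymphotoxin, TNF or regeneration; clone names were left out. The lists, the rule and the group itself were chosen with earlier results of these data known. Tools were R 4.3.3, limma 3.58.1, Python 3.11.15, pandas 2.3.3 and numpy 2.4.6. The alternatives tried were other normalizations, filters, probe choices, cut-offs, slide as a block and leaving out each liver.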

Additional observations from a re-analysis of the deposited data

Results flagged for a closer look

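Of 322 genes with values here, 7 had 1 liver that lay far from the other 3, by the gap to the nearest liver as a share of the whole range; chance flags about 1 in 20 groups. Rsad2 was high in control 1 (9.83, 6.75, 6.73 and 6.69 in control 1, 2, 3 and 4, log2), where the gap was 0.981 of the range. Mup21 was high in control 3 (13.92, 13.97, 14.41 and 13.96, share 0.901). Acads was low in control 1 (9.27, 9.72, 9.71 and 9.66, share 0.856), and H2-DMb1 was low in control 1 near background (5.13, 5.29, 5.29 and 5.31, share 0.875). Cyp2c23 was low in control 3 (12.28, 12.25, 12.08 and 12.25, share 0.851). Clec4f (9.48, 10.10, 9.57 and 9.52, share 0.843) and Dnase1l3 (7.93, 8.33, 7.99 and 7.93, share 0.844) were high in control 2. Of these 7, Rsad2 was wide. None of 6 measures of the whole array set 1 liver apart in this way.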

How the results depend on the processing

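Of the 25 brightest genes, 20 were shared when a gene's probes were averaged, 23 to 24 with 1 liver left out and 24 or 25 under the other settings. The count of wide features, 348, was 121 without background correction, 188 at an offset of 50, 64 by the authors' deposited values, 2975 at a range of at least 1, and 190 to 285 with 1 liver left out. Of the 348 themselves, 121, 188, 43 and 178 to 271 stayed wide in the same order of settings, less the changed cut-off. Narrow features, 236, numbered 1108 without background correction, 539 at an offset of 50, 2003 by the authors' values, 9750 with no filter on dim probes, 736 with slide as a block, 702 at a range of at most 0.3 and 699 to 907 with 1 liver left out, where fewer livers make the range smaller. The median SD of 0.347 was 0.169 by the authors' values and 0.139 with no filter. Of the 25 genes of largest SD, 7 were shared by the authors' values and 15 to 19 with 1 liver left out. Of the 20 of smallest SD, 4 were shared under median scaling, 7 under cyclic loess, 1 by the authors' values, 8 with no filter, 13 by the mean of a gene's probes, 6 with slide as a block, 6 with the trend on signal removed and 2 to 7 with 1 liver left out. Wide replication genes, 13, numbered 8 without background correction, 2 by the authors' values and 8 to 13 with 1 liver left out; controls 2 and 4 were the high pair in 15 to 19 of the same 25 genes under the other normalizations and probe rule, against 18, and in 14 of 20 at a detection p under 0.01. In the NRF2 list controls 1 and 3 were the high pair in 12 of 34 by the authors' values, against 20. Of the SDs of 313 named genes, the authors' values moved 233, no background correction 81, median scaling 57 and the other settings 0 to 53. In the authors' deposited table the SD of Gsta1 was 1.33 and that of Slc51b 0.124; how those values were normalized is not stated and the cause was not tested. Counting all probes in place of genes, 12591 were detected. Slide calls stayed at 0 in every alternative, with a smallest adjusted p (limma) of 0.138 to 1.

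No paired analysis was possible because only 1 group was described. With 4 livers, no repeat array and no depth count, the spread of animals and of handling was not separated. Dim probes near background have compressed ranges, and probes on 1 to 3 arrays, 150 of them with a range of at least 2, were outside the counts.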

Other observations

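Reference and plasma protein genes could differ in spread between their own probes. Of 92 named genes with a second detected probe, 8 had a wide second probe and a first probe that was not wide. These 8 were singled out after their values were seen. For beta-actin (Actb), part of the cell skeleton, the second probe read 6.66, 11.25, 10.75 and 5.86 (log2) in control 1, 2, 3 and 4, a range of 5.39, against a range of 0.881 for the first. The second haptoglobin (Hp) probe read 9.48, 14.30, 13.52 and 12.49, against a range of 0.906 for the first. The second probe of Hspd1, a mitochondrial chaperone, read 6.70, 9.60, 9.05 and 7.85, against a range of 0.354 for the first. Gadd45g, Insig1, Lyz2, Hbb-bs and Lamc1 made up the rest. In 7 of the 8 the 2 livers with the higher signal were controls 2 and 3, which were on different slides and were the upper pair in 18.5% of all features, and in Lamc1 they were controls 1 and 3. What sets such probes apart was not tested.

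The 2 wide genes of the unfolded protein response were high in controls 2 and 3, unlike most of its list. Of its 19 detected genes control 4 was highest in 10, against 28.8% of all features. Controls 2 and 3 were the upper pair in 4, against 18.5% of all features. Calr, a chaperone of the endoplasmic reticulum, had 7.37, 10.14, 9.65 and 8.28 in control 1, 2, 3 and 4, and Sdf2l1, a resident of the same compartment, had 6.48, 8.84, 8.69 and 7.27. Xbp1, the transcription factor of the response, lay between 13.21 and 13.61. Of the cytosolic heat shock genes 3 of 16 were wide, against 3.63% of all features. Hsph1, which recharges HSP70, had 10.49, 10.62, 8.85 and 11.52, with control 3 lowest and control 4 highest. Hspd1 by its first probe lay between 12.24 and 12.60.

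The matrix gene Fn1, fibronectin, was the 1 wide gene of 17 detected matrix genes, with 9.38, 12.17, 11.46 and 10.56 in control 1, 2, 3 and 4. The chemokine Cxcl14 was the 1 wide gene of 14 detected chemokines and cytokines, with 7.84, 8.80, 9.58 and 6.10. Of all features 3.63% were wide. Tnfrsf12a, the receptor of TWEAK, had 9.44, 9.13, 10.07 and 7.54, and the NF-kB feedback gene Tnfaip3 7.75, 7.34, 6.09 and 8.38.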
